A study of Mus musculus with 32 samples.

Results

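The genes described here are 10 genes of the Wnt pathway, out of 24421 genes in the deposited table: Dkk3, its relative Dkk2, the secreted frizzled-related genes Sfrp1, Sfrp2, Sfrp4, Sfrp5 and Frzb, the Wnt inhibitory factor Wif1, and 2 genes that respond to the pathway, Axin2 and Lef1. They were listed by symbol, and the list was chosen by measured values of these data: the higher level of Dkk3 in the albino limb muscle placed Dkk3 at its head. Values of the 10 genes in that comparison are therefore given as a description with no test. All 10 symbols were found in the table.

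RNA was sequenced from the extraocular muscles (EOM, the muscles that move the eye), the tibialis anterior (TA, a limb muscle), and tissue labelled as motor neurons of the oculomotor (CN3) and of the abducens nucleus (CN6) of mice. The study asked about nystagmus, an involuntary movement of the eyes, in albino mice. The albino mice were of the strain B6(CG)Tyr(c-2J)/J, named for a mutant allele of the tyrosinase gene Tyr, and the pigmented mice were C57BL/6. Each of the 8 groups, one per strain and tissue, had 4 libraries. The labels give no age, sex, treatment or time of collection, nor whether each replicate was its own animal. The p-values therefore rest on the spread among these libraries, which may be technical.

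The kind of tissue of 8 albino libraries went against the label. By muscle fibre and neuron gene lists, replicates 1 and 2 of albino EOM and of albino TA were brain. Replicates 3 and 4 of albino CN3 and of albino CN6 were muscle. None of these was reassigned. The comparisons use the other 24 libraries, which leaves 4 C57BL/6 and 2 albino libraries in each tissue, and the 8 are described one by one as the library of that label. Library totals ran from 18544334 to 44254021 counts. The labelled CN3 tissue was also short of its own markers in C57BL/6: the summed level of 7 cholinergic motor neuron genes was 4.21 to 7.34 CPM in C57BL/6 CN3, 53.0 to 103 CPM in albino CN3, 82.8 to 173 CPM in C57BL/6 CN6 and 162 to 171 CPM in albino CN6. CPM, the unit of level used throughout, is the count of a gene scaled to the deposited total of its library.

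Wnt proteins are secreted ligands that bind Frizzled receptors together with the co-receptors Lrp5 and Lrp6. The signal stabilises beta-catenin, which then works with transcription factors of the TCF and LEF family on target genes. Secreted antagonists act outside the cell: Sfrp proteins, Frzb and Wif1 bind the Wnt ligands, whereas Dkk proteins such as Dkk1 and Dkk2 bind the Lrp co-receptors. Dkk3 is the divergent member of the Dkk family. Its part in Wnt signalling depends on the setting, and in skeletal muscle it has been studied in connection with atrophy. Axin2, a scaffold of the complex that degrades beta-catenin, is also a common target of the pathway, and Lef1 is both a factor and a target of it.

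Dkk3 (chromosome 7, 112116017 to 112159057, minus strand, mm10) had its lowest level in the limb muscle of C57BL/6 and its highest in brain. In C57BL/6 TA the 4 libraries held 10.7, 8.13, 11.9 and 15.1 CPM. The albino TA libraries 3 and 4 held 72.5 and 96.4 CPM. Both lay above every C57BL/6 TA library. The fitted difference was 2.85 ± 0.16 (log2 fold change ± SE), or 7.20-fold, with means of 84.5 ± 16.9 and 11.4 ± 2.87 CPM (SD, n = 2 and n = 4). Ordered from the largest rise, Dkk3 stood at place 29 of the 13295 genes tested in TA.

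In EOM, Dkk3 was also higher in albino. The choice of the genes names TA for Dkk3, but it was made with the levels in all tissues known, so the tests in the other tissues are not independent support. C57BL/6 EOM held 51.7, 42.2, 39.4 and 38.7 CPM, and the albino EOM libraries 3 and 4 held 73.0 and 74.7 CPM. The groups did not overlap, which is common for 2 against 4 libraries: in TA, 27.0% of all genes lay wholly above and 22.5% wholly below. The share of all genes in EOM is not given, so lack of overlap in EOM is a description throughout. The log2 fold change was 0.79 ± 0.12, or 1.73-fold (adjusted p = 0.00231). Leaving out each of the 6 libraries in turn kept the call, with values from 0.71 to 0.87. In bulk tissue, a larger number of cells of a type and more RNA per cell cannot be told apart.

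In brain the strains overlapped. C57BL/6 CN3 held 83.5, 67.1, 116 and 98.7 CPM of Dkk3, and the albino CN3 libraries 1 and 2 held 97.3 and 75.8 CPM. C57BL/6 CN6 held 104, 100, 92.3 and 110 CPM, against 85.6 and 106 CPM in the albino CN6 libraries 1 and 2. The log2 fold changes were −0.06 ± 0.20 in CN3 (adjusted p = 0.947) and −0.09 ± 0.10 in CN6 (adjusted p = 0.793). Neither passed the test.

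**Figure D1:**
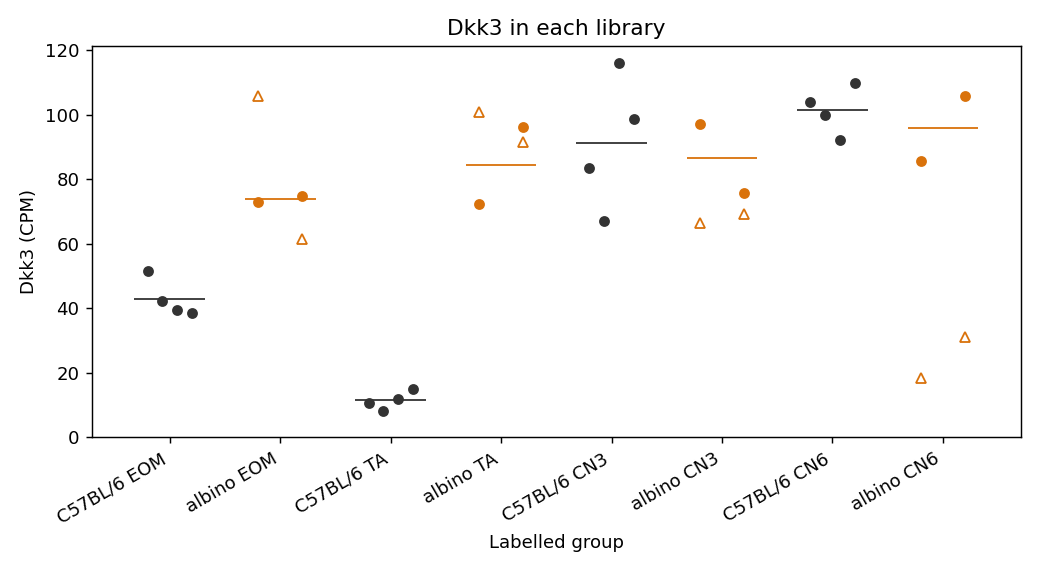
Dkk3 in each of the 32 libraries, in CPM, by labelled group. Dots are libraries whose kind of tissue matches the label and lines are their means (4 libraries in each C57BL/6 group, 2 in each albino group), and open triangles are the 8 libraries that go against their label. The 4 C57BL/6 TA libraries are at or below 15.1 CPM, and the 2 albino TA dots are at 72.5 and 96.4 CPM.

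From the highest mean to the lowest, the order of Dkk3 was C57BL/6 CN6 (102 ± 7.54 CPM), albino CN6 (95.6 ± 14.1), C57BL/6 CN3 (91.3 ± 20.9), albino CN3 (86.6 ± 15.2), albino TA (84.5 ± 16.9), albino EOM (73.8 ± 1.17), C57BL/6 EOM (43.0 ± 5.98) and C57BL/6 TA (11.4 ± 2.87), each with the SD. Each of the first 5 groups overlapped the next one in this order. Only the steps from albino EOM to C57BL/6 EOM and from C57BL/6 EOM to C57BL/6 TA were free of overlap.

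The muscle libraries that go against their label did not all hold the same level of Dkk3. The libraries labelled albino CN3 3 and 4 held 66.4 and 69.2 CPM of Dkk3. Their level of Myh13, the myosin heavy chain typical of eye muscle, was 3742 and 3765 CPM, beside 4272 to 4980 CPM in C57BL/6 EOM. Both had more Dkk3 than any C57BL/6 EOM library. The libraries labelled albino CN6 3 and 4 held only 18.4 and 31.1 CPM of Dkk3, with 19.5 and 94.0 CPM of Myh13, beside 23.8 to 34.8 CPM in C57BL/6 TA. They lay above the highest C57BL/6 TA library at 15.1 CPM and far below the albino TA libraries at 72.5 and 96.4 CPM. The library labelled albino CN6 4 also had 10.6% of its counts on the ribosomal RNA gene Rn45s, the highest share of the 32 libraries.

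The brain libraries labelled as muscle held 106 and 61.4 CPM of Dkk3 (albino EOM 1 and 2) and 101 and 91.6 CPM (albino TA 1 and 2). The library labelled albino EOM 2 lay below every C57BL/6 brain library, and the other 3 lay within the C57BL/6 CN3 range. With all libraries taken as labelled, brain libraries among them, the strains differed by 2.58 on the log2 scale for Dkk3 in TA.

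Other cell types also differed between the strains in TA. All 10 genes of a fibroblast list were called higher in albino TA, with a summed level of 1368 to 1427 CPM against 508 to 703 CPM in C57BL/6 TA. Pdgfra, a receptor of fibroblasts, was 27.1 against 10.8 CPM, and Dcn, a matrix proteoglycan, 517 against 248 CPM. All 8 leukocyte genes were called higher too, at 138 to 171 against 33.4 to 40.5 CPM, and 6 of 7 tendon genes, at 357 to 392 against 121 to 170 CPM. In the same fit 31.1% of all genes were called, and 47.2% of the calls were higher in albino (58.3% with upper quartile factors). The fibroblast sum of the libraries labelled albino CN6 3 and 4, where Dkk3 was 18.4 and 31.1 CPM, was 917 and 1454 CPM. Their tendon sums, 186 and 234 CPM, lay between those of C57BL/6 TA and of albino TA. Their leukocyte sums, 147 and 166 CPM, lay inside the range of albino TA. The part of these cell types in the level of Dkk3 was not tested.

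The fibroblast sum and Dkk3 can also be set side by side over the muscle libraries. C57BL/6 EOM had fibroblast sums of 5691 to 6537 CPM and Dkk3 of 38.7 to 51.7 CPM, whereas albino EOM had lower sums, 4691 and 4884 CPM, and higher Dkk3, 74.7 and 73.0 CPM in the same order. The library labelled albino CN6 4 and the albino TA libraries had sums of 1368 to 1454 CPM, and their Dkk3 ran from 31.1 to 96.4 CPM. Snap25, a synaptic protein of neurons, was at 2.84 and 0.970 CPM in the albino TA libraries 3 and 4. It was at 3221 and 2879 CPM in the brain libraries labelled albino TA 1 and 2 and at 0 in C57BL/6 TA. The part of fibroblasts or of neuronal RNA in the level of Dkk3 was not tested.

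**Figure D2:**
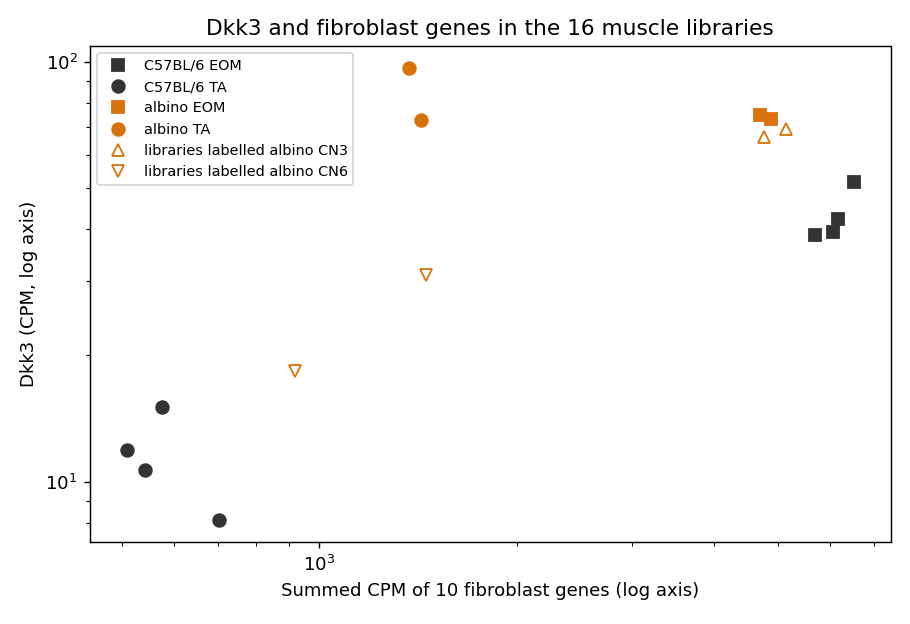
Dkk3 (CPM, log axis) against the summed CPM of 10 fibroblast genes (log axis) in the 16 libraries that are muscle by their markers, including the 4 labelled as brain (open triangles). At sums of 1368 to 1454 CPM, the library labelled albino CN6 4 is at 31.1 CPM of Dkk3 and the albino TA libraries are at 72.5 and 96.4 CPM.

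Among 16001 genes over the 24 libraries, the genes whose log2 CPM was most like that of Dkk3 were Vwa1, which encodes an extracellular matrix protein (Pearson r = 0.877), Npas2, a partner of the circadian clock (0.845), Nelfe, a subunit of the negative elongation factor (0.837), Rab5c, a small GTPase of early endosomes (0.824), and Fuca1, a lysosomal fucosidase (0.817). These libraries share tissue and strain, so r is a description. Vwa1 was 14.9 ± 1.05 CPM in C57BL/6 TA and 23.9 ± 1.53 in albino TA, 31.7 ± 4.50 in C57BL/6 EOM and 43.1 ± 2.13 in albino EOM (SD), and 45.6 to 53.2 CPM on average in the brain groups. Npas2 was 0.223 ± 0.155 CPM in C57BL/6 TA and 1.91 ± 0.559 in albino TA. In EOM it was 2.14 ± 0.486 CPM in C57BL/6 and 9.01 ± 0.144 in albino (SD), and in the brain groups 7.40 to 8.17 CPM on average. Of the other 9 genes described here, the highest r was 0.486 for Sfrp1 and the lowest −0.387 for Dkk2.

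The other Dkk gene, Dkk2 (chromosome 3, 132085292 to 132180304, plus strand), went the other way in eye muscle. It held 6.95, 8.57, 6.48 and 6.93 CPM in C57BL/6 EOM and 5.21 and 2.99 CPM in albino EOM. The albino libraries were both below the C57BL/6 range, and 1 of them far below. The log2 fold change was −0.81 ± 0.25 (adjusted p = 0.0373). This call was lost without C57BL/6 EOM 1 (adjusted p = 0.0532), C57BL/6 EOM 2 (0.0938), C57BL/6 EOM 4 (0.0693) or albino EOM 4, where Dkk2 differed by −0.52 (0.183). In TA, Dkk2 was 1.23 to 3.51 CPM in C57BL/6 and 3.25 and 1.46 CPM in albino, which overlapped. In brain it was low, with a mean of 1.74 ± 0.851 CPM in C57BL/6 CN3 and 0.395 ± 0.0860 CPM in C57BL/6 CN6 (SD, n = 4).

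Sfrp1 (chromosome 8, 23411502 to 23449632, plus strand), Sfrp2 (chromosome 3, 83766321 to 83774316, plus strand) and Frzb (chromosome 2, 80411970 to 80447625, minus strand), all binders of Wnt ligands, fell in albino EOM. Sfrp1 held 17.9, 20.2, 17.2 and 19.5 CPM in C57BL/6 EOM and 15.2 and 12.3 CPM in albino EOM (log2 fold change −0.43 ± 0.13, adjusted p = 0.0323). Sfrp2 held 18.4, 15.5, 13.7 and 17.3 CPM against 10.5 and 10.2 CPM (−0.64 ± 0.15, adjusted p = 0.0143). For all 3 genes both albino libraries lay below the whole C57BL/6 range, which is a description. Frzb, the most abundant of the 10 genes in C57BL/6 EOM by CPM, held 74.8, 82.6, 68.3 and 78.2 CPM against 51.1 and 58.8 CPM (−0.45 ± 0.11, adjusted p = 0.0180). In the muscle libraries labelled albino CN3 3 and 4, Sfrp1 was 8.09 and 24.2 CPM, below and above the C57BL/6 EOM range. Sfrp2 (8.04 and 9.13 CPM) and Frzb (55.8 and 57.6 CPM) lay below the C57BL/6 EOM ranges there. The call of Sfrp1 was lost without C57BL/6 EOM 2 (adjusted p = 0.0832), C57BL/6 EOM 4 (0.0767) or albino EOM 4 (0.150), and those of Sfrp2 (0.0683) and Frzb (0.104) without albino EOM 3.

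Wif1 (chromosome 10, 121033960 to 121100650, plus strand), which binds Wnt ligands through a domain of its own kind, also fell in albino EOM. C57BL/6 EOM held 8.02, 7.17, 13.8 and 6.42 CPM of Wif1, and albino EOM held 3.81 and 4.58 CPM. Albino values were again below the C57BL/6 range. The log2 fold change was −1.06 ± 0.31 (adjusted p = 0.0327), and the call was lost without albino EOM 3 (adjusted p = 0.173) or albino EOM 4 (0.0741). The libraries labelled albino CN3 3 and 4, muscle with a high level of Myh13, held 9.98 and 11 CPM of Wif1, inside the C57BL/6 EOM range.

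Sfrp5 (chromosome 19, 42197971 to 42202252, minus strand), a Wnt-binding antagonist known as a secreted product of fat tissue, rose in albino EOM. Its 4 C57BL/6 EOM libraries held 28.6, 26.9, 23.7 and 26.9 CPM, and the albino libraries held 42.3 and 49.9 CPM. Both albino libraries exceeded every C57BL/6 one. The log2 fold change was 0.81 ± 0.12 (adjusted p = 0.00191). Leaving out any of the 6 libraries kept this call, but with offsets for GC content and exon length the difference was 0.31 (adjusted p = 0.136). The libraries labelled albino CN3 3 and 4 held 44.7 and 45.5 CPM of Sfrp5, between the 2 albino EOM libraries. The summed level of 5 adipocyte genes was 169 to 286 CPM in C57BL/6 EOM and 201 and 566 CPM in albino EOM, and its part in the level of Sfrp5 was not tested.

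Sfrp4 (chromosome 13, 19623104 to 19632994, plus strand), the last of the Sfrp genes here, overlapped between the strains in EOM. It held 34.3, 27.8, 20.1 and 31.7 CPM in C57BL/6 and 22.9 and 18.3 CPM in albino (log2 fold change −0.46 ± 0.21, adjusted p = 0.135). Without C57BL/6 EOM 3, the lowest of its group, the difference was −0.61 and was called (adjusted p = 0.0122).

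The pathway's own response genes were not called in albino EOM. Axin2 (chromosome 11, 108920349 to 108950783, plus strand) held 16.6, 15.2, 15.2 and 14.7 CPM in C57BL/6 EOM and 14.4 and 12.6 CPM in albino EOM (log2 fold change −0.18 ± 0.11, adjusted p = 0.260). Lef1 (chromosome 3, 131110471 to 131224356, plus strand) held 2.58, 2.37, 1.96 and 1.84 CPM against 3.39 and 3.08 CPM (0.58 ± 0.28, adjusted p = 0.150). The ranges did not overlap for either gene, with Axin2 lower and Lef1 higher in albino. Ranges of 2 and of 4 libraries often separate: in TA, 27.0% of all genes lay wholly above and 22.5% wholly below. The share of all genes in EOM is not given here, so the lack of overlap in EOM is a description.

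In EOM the 10 genes thus had 7 calls, 2 higher (Dkk3 and Sfrp5) and 5 lower (Dkk2, Sfrp1, Sfrp2, Frzb and Wif1). Over all 15397 genes tested in EOM, 32.0% were called, 14.5% higher and 17.6% lower in albino. The median log2 fold change of the 10 genes was −0.44 and that of all genes tested was 0.01. With all tissues and both strains in 1 fit, only Dkk3 and Sfrp5 were called, and the 5 genes that fell kept their direction with adjusted p from 0.0593 for Frzb to 0.504 for Wif1. The fibroblast sum was lower in albino EOM, 4691 and 4884 CPM against 5691 to 6537 CPM, with 4 of 10 fibroblast genes called lower (Pdgfra, Dcn, Lum and Col1a2) and 1 called higher (Fbn1). A sum over 6 genes of the meninges was 259 and 277 CPM against 444 to 503 CPM. The part of these cell types in the 5 genes that fell was not tested.

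In TA, the other genes differed by far less than Dkk3, and these values are a description. Wif1 held 0.480, 1.65, 1.13 and 1.07 CPM in C57BL/6 TA and 1.78 and 1.66 CPM in albino TA (log2 fold change 0.63 ± 0.40). Axin2 held 11.1, 11.9, 9.22 and 9.19 CPM against 7.53 and 8.98 CPM (−0.36 ± 0.15). Dkk3 lay wholly above the C57BL/6 range, Wif1 lay above it by as little as 1.66 against 1.65 CPM, and Axin2 lay wholly below it. Over all genes tested in TA, 27.0% lay wholly above and 22.5% wholly below. In the muscle libraries labelled albino CN6 3 and 4, Wif1 was 0.421 and 0.336 CPM, below every C57BL/6 TA library.

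Lef1 was not detected in the albino TA libraries 3 and 4, and the limit that a count of 0 allows there, 3 counts, is 0.114 and 0.121 CPM. In C57BL/6 TA it was at 0.400, 0.230, 0.0866 and 0.215 CPM, so that 1 of the 4 libraries lay under that limit. It was too low for the fit in TA. Of the other 9 genes in TA, the fitted differences ran from −0.36 for Axin2 to 2.85 for Dkk3. Between them stood Dkk2 (−0.14 ± 0.39), Sfrp4 (−0.11 ± 0.58), Frzb (−0.05 ± 0.15), Sfrp5 (0.41 ± 0.19), Sfrp2 (0.48 ± 0.57), Wif1 (0.63 ± 0.40) and Sfrp1 (0.65 ± 0.33). Their groups overlapped, except for Wif1.

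**Figure D3:**
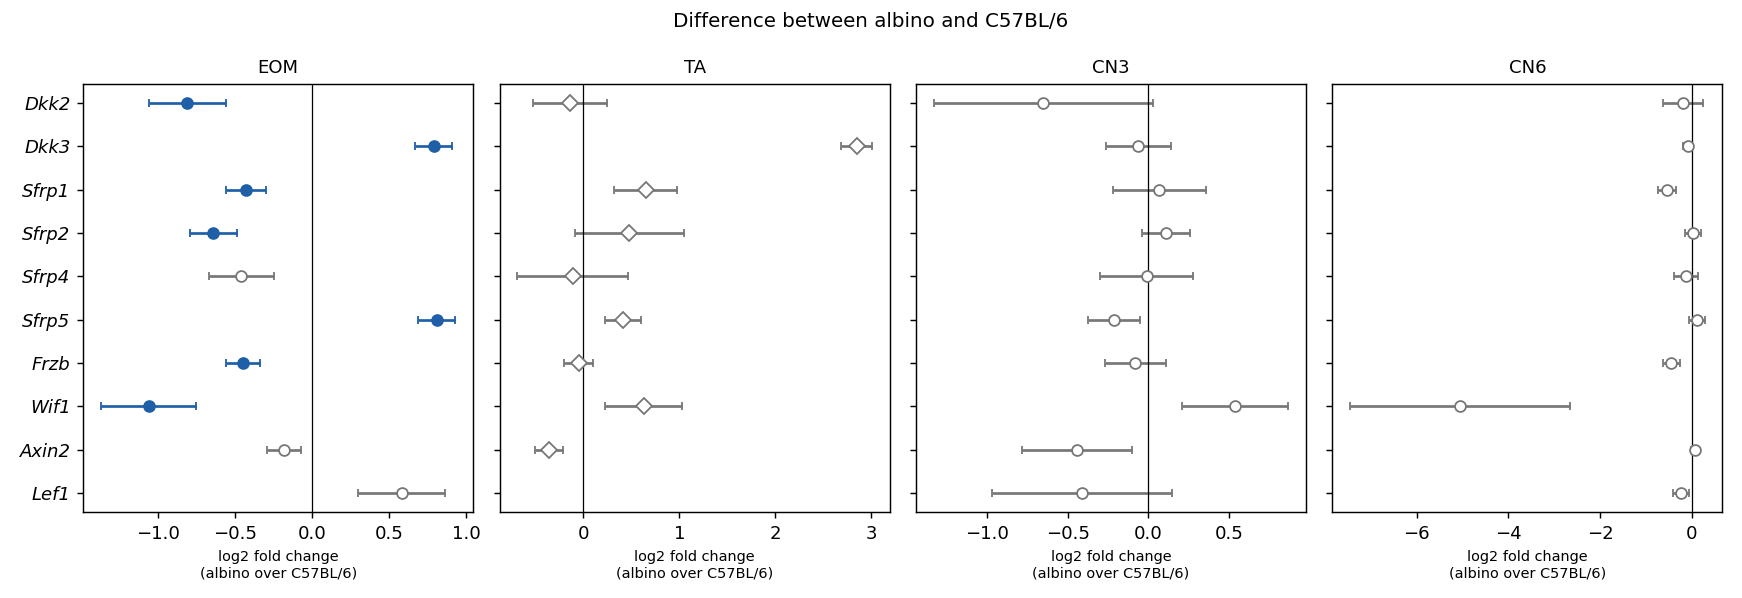
Log2 fold change of albino over C57BL/6 for the 10 genes in EOM, TA, CN3 and CN6, with bars of 1 SE, each panel on its own axis (2 albino and 4 C57BL/6 libraries per tissue). Filled points in EOM passed the test, open points did not, and diamonds in TA are a description with no test. Dkk3 stands at 0.79 in EOM and 2.85 in TA, and Lef1 has no fitted value in TA.

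In brain, 0 of the 10 genes were called between the strains by edgeR's quasi-likelihood test. In CN3, 13 of 16171 genes were called (0.0804%), and 0 of the 10 genes had an unadjusted p under 0.05, beside 8.32% of all genes. In CN6, 4 of 16268 genes were called (0.0246%), 1 of them higher in albino (3 of 6 with upper quartile factors, 2 of 5 without scaling factors). Sfrp1 and Frzb, 2 of the 10 genes, had an unadjusted p under 0.05 in CN6, beside 9.36% of all genes. DESeq2 called 0 of the 10 genes in either tissue. In CN3, 4 of 6 tested cholinergic motor neuron genes were called higher in albino. The largest standard errors in CN3 were those of Dkk2 (−0.65 ± 0.68) and Lef1 (−0.41 ± 0.56).

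Sfrp1 and Frzb in CN6 turned on 1 albino library. Sfrp1 held 40.9, 33.3, 37.3 and 36.2 CPM in C57BL/6 CN6 and 18.4 and 32.5 CPM in albino CN6 1 and 2 (log2 fold change −0.54 ± 0.19, adjusted p = 0.464). Frzb held 10.1, 9.53, 8.87 and 10.3 CPM against 5.38 and 8.88 CPM (−0.45 ± 0.19, adjusted p = 0.514). Library 1 was low for both genes, and library 2 lay just below the C57BL/6 range of Sfrp1 and inside that of Frzb. The Sfrp1 and Frzb of library 1 lay within the C57BL/6 CN3 ranges, 9.38 to 21.1 and 4.98 to 6.94 CPM. Its level of the TCF factor Tcf7l2 was 72.5 CPM, against 8.44 to 12.2 in C57BL/6 CN6 and 81.1 to 232 in C57BL/6 CN3. Its cholinergic gene Chat was 26.5 CPM, against 9.39 to 20.5 in C57BL/6 CN6 and 0.212 to 0.717 in C57BL/6 CN3. Whether library 1 held other tissue was not tested. Without albino CN6 2, Sfrp1 differed by −1.03 (adjusted p = 0.00133) and Frzb by −0.87 (0.0150), in a fit that called 950 genes and assumes that the lone albino library varies like the others.

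**Figure D4:**
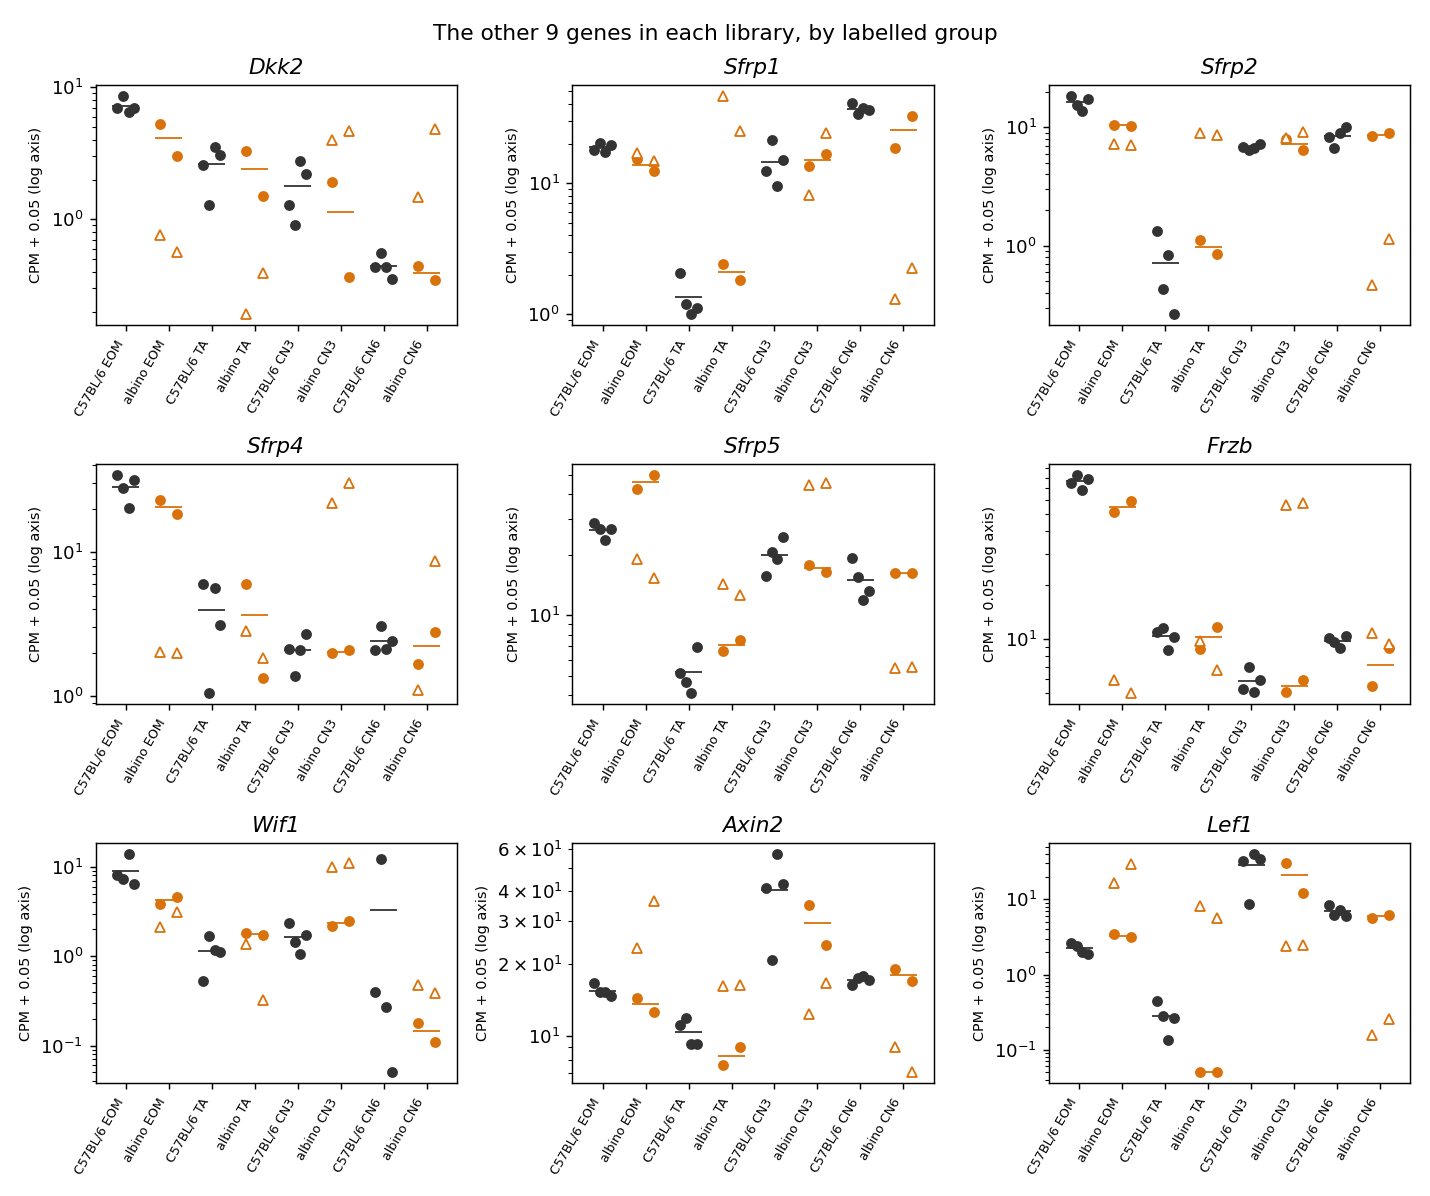
The other 9 genes in each of the 32 libraries (CPM + 0.05, log axis), by labelled group. Dots are libraries whose kind of tissue matches the label, lines are their means and open triangles are the 8 libraries that go against their label. Lef1 is at 0 CPM in both albino TA dots, and Wif1 in C57BL/6 CN6 spreads from 0 to 12.3 CPM.

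Among the C57BL/6 libraries, the antagonists of the Sfrp family and both Dkk genes had higher levels in eye muscle than in limb muscle. In the comparison of EOM with TA, 8 of the 10 genes were called, all higher in EOM, where 74.1% of all genes were called and 41.3% were called higher. The median of the 10 genes was 2.15 on the log2 scale, and that of all genes tested was 0.16. Sfrp2 differed by 3.90 ± 0.30 (16.3 ± 2.05 against 0.664 ± 0.474 CPM, adjusted p = 3.1e-09) and Sfrp1 by 3.12 ± 0.25 (18.7 ± 1.41 against 1.29 ± 0.477 CPM, adjusted p = 5.3e-09). Frzb (2.15 ± 0.11, adjusted p = 1.5e-11), Sfrp4 (2.15 ± 0.35, 2.5e-05), Lef1 (2.48 ± 0.56, 6.9e-04) and Sfrp5 (1.63 ± 0.18, 2.2e-07) were higher as well. Dkk3 (1.18 ± 0.17) was also higher and counts among the calls. Its low level in these C57BL/6 TA libraries took part in its choice, so this value is a description. Dkk2 (0.76 ± 0.32, adjusted p = 0.0384) was the smallest of the calls and was lost without C57BL/6 EOM 1, 2 or 4 or C57BL/6 TA 1 or 2, with adjusted p from 0.0541 to 0.121.

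The fibroblast sum of C57BL/6 EOM (5691 to 6537 CPM) also stood above that of C57BL/6 TA (508 to 703 CPM), and all 10 fibroblast genes were called higher. Its part in the difference of the antagonists was not tested. These fitted differences are 0.73 lower on the log2 scale than the ratios of CPM, by the scaling factors. The 20 most abundant genes took 27.8 to 28.8% of the counts in TA and 14 to 14.4% in EOM. Without scaling factors the share of higher calls among all genes went from 55.7% to 88.3%, the median of all genes was 0.89, 10 of the 10 genes were called higher, and Axin2 went from −0.15 ± 0.21 (adjusted p = 0.516) to 0.58 (adjusted p = 0.0182). Wif1 (2.29 ± 1.02, adjusted p = 0.0511) just missed the threshold, and it was called in 6 of 7 other settings (adjusted p from 0.0141 to 0.0504 over the 7). It was also called with each C57BL/6 CN6 library left out in turn, at the same difference, with adjusted p of 0.0422, 1.6e-04, 0.0367 and 0.0220 without libraries 1 to 4. The second of these is the library with 12.3 CPM.

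In the comparison of CN3 with CN6 in C57BL/6, 5 of the 10 genes were called, 3 higher and 2 lower in CN3, where 21.5% of all genes were called (9.49% higher and 12% lower). Both response genes were higher in CN3. Axin2 held 41.1, 20.7, 57 and 42.9 CPM in CN3 and 16.3, 17.4, 17.8 and 17.0 CPM in CN6 (1.19 ± 0.19, adjusted p = 3.6e-04). Lef1 held 32.7, 8.56, 39.8 and 34.0 CPM against 8.48, 6.14, 7.25 and 5.87 CPM (2.01 ± 0.32, adjusted p = 3.1e-04). C57BL/6 CN3 2 stood apart from the other 3 CN3 libraries for both genes and lay just above the CN6 range. Dkk2 held 1.24, 0.859, 2.73 and 2.15 CPM in CN3 and 0.384, 0.510, 0.383 and 0.301 CPM in CN6 (2.09 ± 0.38, adjusted p = 8.3e-04).

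The antagonists Sfrp1 and Frzb went the opposite way and were lower in CN3. Sfrp1 held 12.3, 21.1, 9.38 and 14.9 CPM in C57BL/6 CN3 and 33.3 to 40.9 CPM in C57BL/6 CN6 (−1.39 ± 0.20, adjusted p = 1.1e-04). Frzb was 5.75 ± 0.877 CPM in CN3 and 9.72 ± 0.656 CPM in CN6 (−0.79 ± 0.11, adjusted p = 1.4e-04, SD, n = 4). For Sfrp1, too, C57BL/6 CN3 2 was the library nearest to CN6. All 5 calls held with each library left out in turn. Beside these differences, all 7 cholinergic motor neuron genes were called lower in C57BL/6 CN3, Chat, the enzyme of acetylcholine synthesis, standing at 0.433 against 15.7 CPM. The part of these neurons in the differences was not tested.

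Wif1 in C57BL/6 CN6 rested on 1 library. It held 0.352, 12.3, 0.219 and 0 CPM there and 2.28, 1.40, 1.01 and 1.68 CPM in C57BL/6 CN3 (−1.05 ± 0.96, adjusted p = 0.477). Without C57BL/6 CN6 2 the difference turned to 3.04 (adjusted p = 0.00242), that is, higher in CN3. A count of 0 in C57BL/6 CN6 4 allows up to 0.0753 CPM. C57BL/6 CN6 2 also had the highest sums of its group for 5 astrocyte genes (1432 against 1031 to 1064 CPM) and 6 meninges genes (79.4 against 36.8 to 46.5 CPM).

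**Figure D5:**
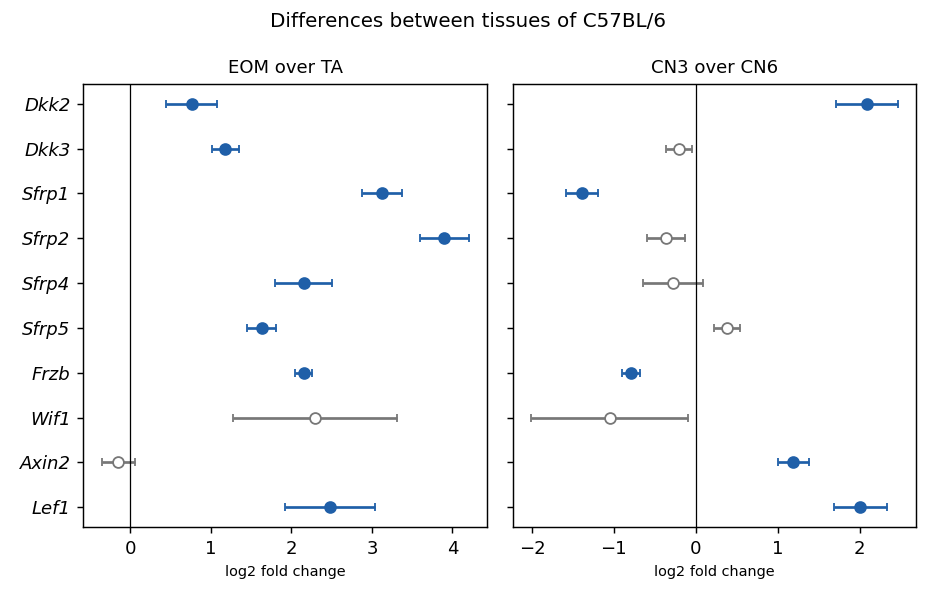
Log2 fold change between tissues of C57BL/6 for the 10 genes, EOM over TA on the left and CN3 over CN6 on the right, with bars of 1 SE (4 libraries per tissue). Filled points passed the test: 8 on the left, all above 0, and 5 on the right, of which Dkk2, Axin2 and Lef1 are above 0 and Sfrp1 and Frzb below. The point of Dkk3 on the left is a description, since its level in C57BL/6 TA took part in its choice.

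The brain libraries labelled as muscle spread over the same range for these genes. Those labelled albino EOM 1 and 2 held 23.1 and 36.3 CPM of Axin2 and 16.4 and 29.8 CPM of Lef1, above every C57BL/6 CN6 library. Those labelled albino TA 1 and 2 held 16.1 and 16.3 CPM of Axin2 and 8.03 and 5.58 CPM of Lef1, within or just below the C57BL/6 CN6 range. Sfrp1 was 46.2 CPM in the library labelled albino TA 1, the highest of the 32 libraries. That library also had 8126 CPM summed over 5 choroid plexus genes, beside 28.1 CPM in the library labelled albino TA 2, where Sfrp1 was 25.1 CPM. Among the muscle libraries, Sfrp1 was 8.09 CPM in the library labelled albino CN3 3 and 24.2 CPM in that labelled albino CN3 4. These values lay below and above the C57BL/6 EOM range of 17.2 to 20.2 CPM. The sums over 5 epithelial genes were 33.7 and 508 CPM in these libraries, and 67.5 to 444 CPM in C57BL/6 EOM. The part of choroid plexus or of epithelium in the level of Sfrp1 was not tested.

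In C57BL/6 muscle against brain, the mean of the log2 levels of EOM and TA was compared with that of CN3 and CN6, and 8 of the 10 genes were called, 3 higher and 5 lower in muscle, where 88.8% of all genes were called (41.4% higher and 47.4% lower). Dkk2 (3.06 ± 0.25, adjusted p = 1.9e-09), Sfrp4 (2.96 ± 0.26, 4.8e-09) and Frzb (2.59 ± 0.08, 1.1e-15) were higher in muscle. Lef1 (−3.60 ± 0.30, adjusted p = 2.7e-09) and Sfrp1 (−1.54 ± 0.16, 5.2e-08) were lower. Dkk3 (−1.43 ± 0.12) was lower too, as a description, since its level in C57BL/6 TA took part in its choice. Axin2 (−0.36 ± 0.14, adjusted p = 0.0218) was lower by less, and its call was lost without C57BL/6 CN3 3 (0.0526). Sfrp2 was called lower on this mean of logs (−0.52 ± 0.20, adjusted p = 0.0185, lost at 0.0518 without C57BL/6 TA 2), although its mean CPM was higher in muscle, 8.46 against 7.61. C57BL/6 EOM, at 13.7 to 18.4 CPM of Sfrp2, lay above every C57BL/6 brain library (6.37 to 10.1 CPM), and C57BL/6 TA, at 0.215 to 1.28 CPM, below them. The CPM of muscle and brain libraries overlapped for Dkk2, Sfrp4, Frzb, Sfrp1, Sfrp2 and Axin2. Mean Sfrp1 was 18.7 CPM in C57BL/6 EOM and 1.29 in C57BL/6 TA, against 14.4 in CN3 and 36.9 in CN6. Mean Frzb was 76.0 CPM in C57BL/6 EOM and 10.3 in C57BL/6 TA, against 5.75 in CN3 and 9.72 in CN6. In this comparison the fitted difference is 0.69 higher than the ratio of CPM. Sfrp5 (0.13 ± 0.12, adjusted p = 0.296) was not called and turned to −0.56 (3.2e-04) without scaling factors, which moved the median of all genes from −0.13 to −0.81 and the calls among all genes from 6901 higher and 7903 lower to 4528 higher and 10582 lower.

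Levels per kilobase of exon allow the genes to be set beside each other. In C57BL/6 EOM, Frzb stood first with 23.5 ± 1.85 CPM per kb, ahead of Sfrp5 (14.0 ± 1.08) and Dkk3 (12.8 ± 1.78), and Lef1 stood last with 0.249 ± 0.0396 (SD, n = 4). In albino EOM, Sfrp5 (24.3 ± 2.86) and Dkk3 (22.0 ± 0.349) stood above Frzb (17.0 ± 1.68, SD, n = 2). In C57BL/6 TA, Dkk3 (3.41 ± 0.854), Frzb (3.18 ± 0.374) and Sfrp5 (2.71 ± 0.645) were within their spread of one another. In albino TA, Dkk3 stood at 25.2 ± 5.03 CPM per kb and the next gene, Sfrp5, at 3.69 ± 0.347. In both C57BL/6 brain tissues Dkk3 led, with 27.2 ± 6.21 in CN3 and 30.3 ± 2.24 in CN6.

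The wider pathway was read from lists of 79 further genes, covering ligands, R-spondins, receptors, intracellular parts, TCF factors with targets and other antagonists. In EOM, 63 of them could be tested, and 7 were called higher and 15 lower in albino, beside 32.0% called among all genes; their median was −0.21. Among those lower were the receptors Fzd7 (−0.83 ± 0.09, 63.2 against 114 CPM, adjusted p = 6.3e-04) and Fzd5 (−0.78 ± 0.11), the co-receptor Lrp6 (−0.86 ± 0.10, 118 against 217 CPM, adjusted p = 8.4e-04), the ligand Wnt2b (−0.94 ± 0.11, 18.5 against 35.9 CPM) and Gsk3b, a kinase of the beta-catenin destruction complex (−0.87 ± 0.10). Higher were Dvl1, which relays the signal of Frizzled (0.52 ± 0.07, 177 against 125 CPM, adjusted p = 0.00175), the ligands Wnt4 (0.53 ± 0.12) and Wnt11 (0.52 ± 0.12), Porcn, the enzyme that adds the lipid to Wnt proteins (0.51 ± 0.13), and Pygo2, a co-factor of beta-catenin (0.40 ± 0.11). Of 8 tested TCF factors and targets, 0 were called in EOM by edgeR's quasi-likelihood test or by DESeq2, and 0 had an unadjusted p under 0.05.

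In TA, 54 of the 79 genes could be tested and 8 were called higher and 9 lower in albino, a share close to the 31.1% called among all genes. The lower ones with the smallest adjusted p were Apc (−0.43 ± 0.07), a scaffold of the destruction complex, Gsk3b (−0.63 ± 0.11), the R-spondin receptor Lgr4 (−0.36 ± 0.07), the kinase Csnk1a1 (−0.38 ± 0.08) and Lrp6 (−0.36 ± 0.09, adjusted p = 0.00693). The higher ones were Lrp5, the other co-receptor (0.44 ± 0.09, adjusted p = 0.00208), the cyclin gene Ccnd1 (0.95 ± 0.19), the receptor Fzd2 (1.17 ± 0.26), the ligand Wnt5b (0.89 ± 0.25) and Dvl1 (0.21 ± 0.06). Their median was 0.03. In CN3 and CN6, 0 of 72 and 0 of 70 tested genes were called between the strains by edgeR's quasi-likelihood test or by DESeq2. By the edgeR test 6 and 8 of them had an unadjusted p under 0.05, beside 8.32% and 9.36% of all genes.

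In C57BL/6 EOM against TA, 39 of 71 tested genes of the wider lists were higher and 13 lower, a share close to the 74.1% called among all genes. All 8 tested R-spondin genes and R-spondin receptors were called, 7 of them higher, Lgr5 the most (5.15 ± 0.32, 9.39 against 0.162 CPM). Wnt2b (3.87 ± 0.17, 35.9 against 1.48 CPM), Ccnd1 (2.86 ± 0.13), Fzd3 (3.54 ± 0.19) and Fzd2 (2.66 ± 0.19) were also higher in EOM, whereas Gsk3a (−1.15 ± 0.05), Dvl1 (−1.02 ± 0.07), the Wnt receptor Ryk (−0.89 ± 0.06), Btrc, which targets beta-catenin for degradation (−0.60 ± 0.06), and Lgr4 (−0.83 ± 0.09) were lower by the fit. For Ryk, Btrc and Lgr4 the CPM of the 2 tissues overlapped.

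In CN3 against CN6, 11 of the 71 genes were higher and 10 lower in CN3, beside 9.49% higher and 12% lower among all genes. Tcf7l2, a member of the same family of factors as Lef1, had the largest difference, with 144 against 10 CPM (3.80 ± 0.26, adjusted p = 5.7e-08). Wnt2b (0.98 ± 0.15), Fzd8 (0.86 ± 0.14), Fzd1 (0.89 ± 0.16) and Bcl9, a co-factor of beta-catenin (0.45 ± 0.09), were higher too. Lower in CN3 were the ligands Wnt11 (−1.57 ± 0.23) and Wnt5a (−0.95 ± 0.14, 10.2 against 19.1 CPM), the receptor Lgr6 (−1.60 ± 0.26), Rspo2 (−1.67 ± 0.31) and Apc (−0.32 ± 0.08). In muscle against brain, where 88.8% of all genes were called, 31 of the 71 genes were higher, led by the Dkk receptor Kremen1 (3.20 ± 0.06, 123 against 21.0 CPM), Ryk (2.09 ± 0.05), Fzd7 (3.76 ± 0.10), Lrp6 (1.79 ± 0.05) and Lrp5 (2.32 ± 0.08). The 30 lower ones were led by the neuronal Apc2 (−6.19 ± 0.13), Fzd3 (−4.27 ± 0.11), Porcn (−1.99 ± 0.06), Btrc (−1.42 ± 0.04) and Bcl9 (−2.23 ± 0.07).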

How the data were processed

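Bulk RNA was sequenced in 32 libraries. RNA was isolated with RNeasy kits for fibrous or for lipid-rich tissue, per the labels. The authors deposited unnormalized counts, with 1 row for each gene symbol. Tools named in the submitters' processing notes are HISAT2 2.1.0, Trimmomatic 0.33, featureCounts, FastQC and edgeR, with the build mm10. The annotation and strand setting are not given in the sources used here, so counts of antisense neighbours cannot be separated here. Date-like symbols, 27 in all, hold up to 0.309% of the counts of a library. Positions and exon lengths come from GENCODE vM21 on mm10, in which 23309 symbols (95.5%) were found. Sequences of the 10 genes were not used here.

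The kind of tissue was muscle if 8 muscle fibre genes had a higher mean log2(CPM + 1) than 8 neuron genes, otherwise brain. The fits used edgeR 4.0.16 (R 4.3.3): filterByExpr, TMM scaling, the quasi-likelihood F test and Benjamini-Hochberg adjustment over all genes tested, with a gene called at an adjusted p under 0.05. Strains were compared within each tissue, and the C57BL/6 tissues in 1 fit of 16 libraries. Errors of fold changes are SE, and errors of CPM are SD. Library totals of 18544334 to 44254021 counts limit the precision of the lowest genes. A check of the test on simulated data covered the strains in EOM, the strains in CN3, and CN3 against CN6 in C57BL/6. Its outcome is not given here. Alternatives were other scalings and filters, DESeq2 1.42.0, all groups in 1 fit, a replicate block, all libraries as labelled, offsets for GC content and exon length, leaving out each library and, added after seeing the data, no scaling factors.

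The 10 genes and all lists were chosen with earlier results of these data known. Named are the 10 genes, up to 5 called genes per direction of the wider Wnt lists by smallest adjusted p, and the 5 genes most like Dkk3 by Pearson correlation of log2 CPM (prior count 2), leaving out model-number symbols. Single marker genes, Lgr5 among them, were named after their values were seen.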

Additional observations from a re-analysis of the deposited data

Results flagged for a closer look

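Wif1 in C57BL/6 CN6 2 was at 12.3 CPM, far from the other 3 libraries of the group at 0.352, 0.219 and 0 CPM. Of 40 groups of 4 C57BL/6 libraries looked at, 1 had a library this far from the rest, and chance alone marks about 1 in 20 groups.

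For Wif1 and Lef1 the difference between the strains had opposite signs in the 2 muscles. In EOM the difference of Wif1 was called and that of Lef1 was not, and in TA neither was tested. The mean of Wif1 in albino minus that in C57BL/6 was −4.67 CPM in EOM and 0.636 CPM in TA. For Lef1 it was 1.05 CPM in EOM and −0.233 CPM in TA, where both albino libraries had 0 counts. In EOM both albino libraries lay outside the C57BL/6 range for both genes. In TA, Wif1 lay above it by as little as 1.66 against 1.65 CPM, and the 0 counts of Lef1 allow up to 0.114 and 0.121 CPM, above the lowest C57BL/6 library at 0.0866 CPM. The difference between the muscles was not tested.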

How the results depend on the processing

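Of 1320 values of single genes under an alternative, 1253 kept their side of the threshold with no called value changing sign (in TA, stayed within 1 SD), 40 lost and 17 gained a call, 7 values in TA moved and 3 reversed. Reversed were Axin2 in EOM against TA without scaling factors (0.58), Sfrp5 in muscle against brain without them (−0.56) and Wif1 in CN3 against CN6 without C57BL/6 CN6 2 (3.04, the others left out in turn giving values from −1.47; it was 0.12 with the replicate block). In EOM the 7 calls between the strains became 2 with all tissues and both strains in 1 fit, 2 with the replicate block and 0 with all libraries as labelled, and ran from 4 to 8 with 1 library left out (4 without albino EOM 3 or albino EOM 4). The call of Dkk3 in EOM was lost only with all libraries as labelled (0.76, adjusted p = 0.113), and its other values ran from 0.68 to 0.94. In TA the difference of Dkk3 ran from 2.58 to 2.93 over the alternatives and from 2.66 to 3.03 with 1 library left out. None of these fits held the muscle libraries labelled albino CN6 3 and 4, where Dkk3 was 18.4 and 31.1 CPM. The fit as labelled added brain libraries at 101 and 91.6 CPM. These ranges therefore do not cover the spread over all albino muscle libraries. Over all genes, the 4934 calls in EOM became 2641 with the replicate block, 2556 with GC and length offsets, 2738 without albino EOM 3 and 1 as labelled, and the 4131 calls in TA became 2484 without albino TA 3 and 18 as labelled. The 13 calls in CN3 became 101 with DESeq2, 49 in 1 fit, 21 without a filter, 5 with the block, 0 as labelled and 2 to 12 with 1 library left out. The 4 calls in CN6 became 106 with DESeq2, 21 without a filter, 12 in 1 fit, 6 with upper quartile factors or GC and length offsets, 0 with the block, 0 as labelled, 9 without albino CN6 1 and 950 without albino CN6 2. Calls of the 10 genes in CN6 ran from 0 to 2 with 1 library left out. They ran from 7 to 9 in EOM against TA, from 5 to 6 in CN3 against CN6 and from 7 to 9 in muscle against brain. Libraries with the same replicate number did not deviate together (correlations of −0.15 to 0.22), so the numbers were not taken as pairs. Depth limits Lef1 in TA and Wif1 in CN6, which had libraries at 0 counts.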
